A study of Mus musculus with 24 samples.

Results

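The integrated stress response is the program by which a cell slows protein synthesis and switches on a set of recovery genes when its endoplasmic reticulum, its amino acid supply or its mitochondria are under strain. Its messenger RNAs were followed here through 10 genes in MIN6 cells, an insulinoma line of mouse β cells, with and without proinflammatory cytokines. The cells carried a scrambled vector or vectors made to inhibit or overexpress the microRNA miR-146a-5p. The 10 genes (Eif2ak3, Atf4, Ddit3, Trib3, Chac1, Asns, Sesn2, Ppp1r15a, Atf3 and Ddit4) were chosen by name as known parts of the pathway. The choice was made with earlier results of these data known, so their counts beside those of all genes are descriptions. All 10 were found among the 17696 genes of the count table. RNA sequencing had been performed on 24 libraries in 6 groups of 4. Scr cells carried a lentiviral vector with a scrambled sequence, ZIP cells a vector with a sequence antisense to miR-146a-5p, and OE cells a vector that overexpresses miR-146a-5p. The same lines were also treated for 24 h with TNFα at 10 ng/ml, IL-1β at 5 ng/ml and IFNγ at 100 ng/ml (Scr+Cy, ZIP+Cy and OE+Cy).

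All lines had been selected with puromycin and expanded from single clones. Scr and ZIP shared a vector type with a green reporter, whereas OE came from another vector type with a red reporter. Line and clone, and in OE the vector type as well, therefore cannot be told apart in any comparison between lines. The level of the microRNA was not among the values of these libraries. By separate qRT-PCR of untreated cells, the study reported it as higher in OE and unchanged in ZIP, each against Scr. With cytokines, the study reported a rise of the microRNA in all lines, each against the same line untreated. That rise was far larger in Scr than in OE, and smallest in ZIP. Between 26657792 and 37168232 reads were assigned to genes per library, with a median of 30701023. The summed level of 12 β cell markers, insulin among them, lay between 26120 and 52830 CPM (reads scaled to a common library size) in the 24 libraries. The summed level of 6 fibroblast markers differed within groups and was 0.867 to 18.9 CPM in Scr, 3.35 to 54.0 in ZIP, 0.773 to 4.11 in OE, 0.931 to 58.7 in Scr+Cy, 3.26 to 6.04 in ZIP+Cy and 0.537 to 1.90 in OE+Cy. Of 7 leukocyte markers 4 were measured, and they summed to at most 4.60 CPM in any library. The 6 measured markers of other islet, acinar and duct cells summed to 24.9 to 369 CPM, and 1 to 3 of them were at 0 in every library of a group. The libraries are bulk RNA, so fewer cells of a type and less RNA per cell cannot be told apart.

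As background, several kinases phosphorylate the translation initiation factor eIF2α. Among them is PERK, the product of Eif2ak3, which senses unfolded proteins in the endoplasmic reticulum. Phosphorylated eIF2α lowers general translation but favours translation of the transcription factor ATF4, so that the activity of the pathway is set in part at the level of protein and phosphorylation, which mRNA counts do not measure. ATF4 switches on genes for amino acid uptake and synthesis, and with CHOP (Ddit3) and ATF3 it reaches Trib3, Chac1 and other genes. The PP1 subunit GADD34 (Ppp1r15a) dephosphorylates eIF2α and closes the loop. β cells make large amounts of insulin in the endoplasmic reticulum and are known to depend on PERK.

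The short DNA element at which ATF4 and its C/EBP partners bind is the feature that ties many of these genes together, so the promoters of the 10 genes were searched for it. RefSeq promoters (250 bases before to 50 after the start site, GRCm38.p6) were available for all 10. The core TGATGNAA, on either strand, was found in 4 of them and in 3.97% of 32851 promoters. Over 13884 genes of the count table, taking the first promoter of each, the share was 2.47%. These 4 windows of 30 bases are shown on the strand of the gene, with the element in capitals.
Trib3 (chr2:152344028-152344057, minus strand, element from position 15): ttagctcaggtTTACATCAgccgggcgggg
Chac1 (chr2:119351038-119351067, plus strand, element from position −193): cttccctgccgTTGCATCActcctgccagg
Asns (chr6:7693214-7693243, minus strand, element from position −23): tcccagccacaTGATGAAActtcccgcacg
Atf3 (chr1:191183425-191183454, minus strand, element from position −110): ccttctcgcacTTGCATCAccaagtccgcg

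Positions count from the start site, negative before it, and in Trib3, Chac1 and Atf3 the element lies on the opposite strand and is read in reverse. Chac1 and Atf3 held the stricter form TGATGCAA, which is contained in TGATGNAA and was found in 0.895% of promoters (0.655% of genes of the count table). Of the 60 further pathway genes described below, 46 had a promoter in the table and 11 of these held TGATGNAA. The palindromic ATF/CRE element TGACGTCA was present in 1 of the 10, Ppp1r15a, and in 1.79% of promoters (2.94% of genes of the count table). The core of the interferon-stimulated response element, GAAANNGAA, was likewise present in Ppp1r15a alone among the 10. It was found in 8.56% of promoters (7.25% of genes of the count table). Both windows are shown because Ppp1r15a was the only one of the 10 with either element.
Ppp1r15a, ATF/CRE (chr7:45526269-45526298, minus strand, element from position −12): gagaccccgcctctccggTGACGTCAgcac
Ppp1r15a, interferon-stimulated core (chr7:45526469-45526498, minus strand, element from position −220): aaaataaaagGAAAGGGAAatggcacggta

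Mature miR-146a-5p lies on the minus strand of chromosome 11 (chr11:43374435-43374456, GRCm38.p6), and its seed, bases 2 to 8, is in capitals.
miR-146a-5p: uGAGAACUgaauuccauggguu

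The match to that seed, AGTTCTC, was present in the annotated 3′ UTRs of 0 of the 10 genes. It was present in 12.1% of the 15446 genes searched. Only the longest annotated UTR of a gene was searched, and those of the 10 were 76 (Ppp1r15a) to 1684 bases (Sesn2) long. Short ones, such as that of Atf4 (81 bases), leave little room for a match. A match of letters is not a bound site, and its lack in these annotations says only that these letters are not in the UTRs searched.

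The count table places the genes on mm10. Eif2ak3 lies at chr6:70844515-70905241 (plus strand), Atf4 at chr15:80255184-80257545 (plus), Ddit3 at chr10:127290793-127296288 (plus) and Atf3 at chr1:191170297-191183333 (minus). Trib3 lies at chr2:152337425-152344060 (minus), Chac1 at chr2:119351242-119354327 (plus) and Asns at chr6:7675165-7693209 (minus). Sesn2 lies at chr4:132492807-132510456 (minus), Ppp1r15a at chr7:45522917-45526268 (minus) and Ddit4 at chr10:59949675-59951770 (minus). Annotated exons of other genes overlap those of Eif2ak3 (485 bases, Gm43292), Ddit3 (68 bases, Mars, and 13 bases, Gm4189) and Ppp1r15a (12 bases, Tulp2), each on the opposite strand. The use of strand in counting is not given in the sources used here, so reads of these stretches are uncertain.

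Levels differed widely among the 10 genes when given per length (RPKM over the union of annotated exons). In Scr, Atf4 stood at 117 ± 19.7 RPKM (SD, n = 4) and Asns, the enzyme that makes asparagine, at 84.8 ± 9.02. The other genes lay between 9.51 ± 0.668 for Ppp1r15a and 17.3 ± 3.29 for Chac1, except Atf3, a stress-induced transcription factor, at 0.951 ± 0.191 RPKM. Atf3 was also the gene with the widest range over groups, 26.0-fold between the lowest and the highest group mean, whereas the other 9 spanned 1.73-fold (Asns) to 3.33-fold (Trib3). The highest group mean was that of OE+Cy for 9 of the 10 genes, and that of OE for Ddit4, an inhibitor of mTORC1 signaling. The lowest group mean was that of Scr+Cy for 7 genes, of which only Chac1 differed there from Scr by the test below, and that of Scr for Eif2ak3, Ddit3 and Atf3.

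**Figure D1:**
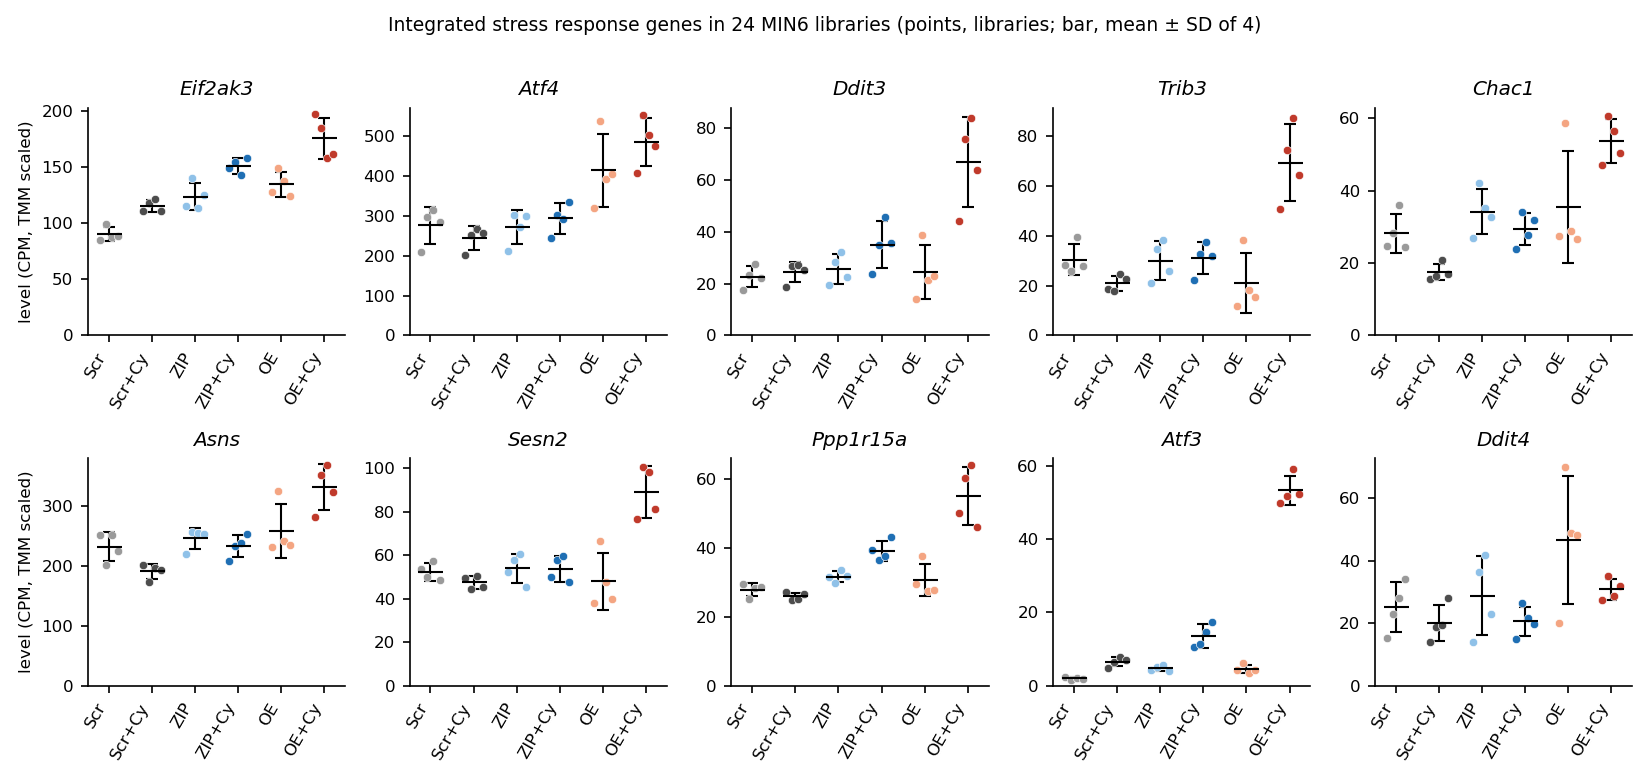
Level of each of the 10 genes in CPM (y axis, from 0) in the 6 groups (x axis), with 1 point per library and bars for the mean ± SD of 4 libraries. Atf3 is at 49.8 to 59.1 CPM in OE+Cy and at most at 17.5 CPM in any other library, and for Ddit3 and Trib3 all 4 OE+Cy libraries lie above all OE libraries.

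To learn what the cytokines did to the pathway in control cells, Scr+Cy was compared with Scr. Of the 10 genes, 3 passed the test (an edgeR quasi-likelihood test with a Benjamini-Hochberg adjusted p under 0.05 over all genes), against 17.8% of all genes (10.5% as higher and 7.33% as lower). Treated and untreated libraries were fully separate for 4 of the 10 genes, and for 21.2% of all genes. Eif2ak3 and Atf3 rose and Chac1, an enzyme that degrades glutathione, fell. Median log2 fold change was −0.16 over the 10 genes and 0.002 over all genes. Of the 12 β cell markers, 3 rose and 3 fell, and no marker of the other cell types passed.

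Atf3 was at 2.54, 1.61, 2.22 and 1.83 CPM in the Scr libraries (replicates 1 to 4) and at 4.87, 6.54, 7.82 and 7.12 CPM in Scr+Cy. The groups did not overlap, and Atf3 rose by 1.68 ± 0.199 on the log2 scale (SE; 3.20-fold, adjusted p = 6.27e-07). Counts for Atf3 were the smallest among the 10 genes, with 56 reads in the lowest library. Eif2ak3 was at 84.7 to 98.9 CPM in Scr and at 110.5 to 122 in Scr+Cy, and rose by 0.36 ± 0.0764 (adjusted p = 0.00148). Every Scr+Cy library was above every Scr library, although the change was only 1.28-fold. Chac1 was at 24.6, 28.2, 35.9 and 24.3 CPM in Scr and at 15.6, 16.5, 20.9 and 17.0 in Scr+Cy. It fell by 0.69 on the log2 scale (SE 0.204, adjusted p = 0.019), again with no overlap. That call was lost without Scr replicate 3 (adjusted p = 0.0891), Scr+Cy replicate 1 (0.0516) or Scr+Cy replicate 2 (0.0522).

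In the fit of all 6 groups without a replicate block, the rest of the group did not pass the test in Scr cells. Trib3, a pseudokinase that feeds back on the pathway, had a log2 fold change of −0.54 (normal 95% interval −1.06 to −0.02, unadjusted p = 0.0536, adjusted p = 0.178). Its Scr+Cy libraries (17.98 to 24.5 CPM) nevertheless lay below all Scr libraries (25.8 to 39.6 CPM). Asns had a log2 fold change of −0.28 (−0.48 to −0.08, adjusted p = 0.0577). With the replicate number as a block, which the pairing of these libraries allows, Asns passed the test (−0.28, adjusted p = 0.043). Without the block, Atf4 (−0.18), Ddit3 (0.11), Sesn2 (−0.14), Ppp1r15a (−0.11) and Ddit4 (−0.32) had intervals that included 0, the widest being that of Ddit4 (−0.94 to 0.31). A fit of the block in only Scr and Scr+Cy was added after the data were seen. There 8 genes passed, 2 as higher and 6 as lower, beside 31.1% of all genes. Lower besides Chac1 were Trib3 (−0.52, adjusted p = 5.32e-06), Asns (−0.27, 3.18e-05), Ddit4 (−0.30, 0.00169), Atf4 (−0.16, 0.00406) and Sesn2 (−0.13, 0.0234). Ddit3 and Ppp1r15a did not pass there.

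In ZIP cells, which carry the antisense vector, 3 of the 10 genes passed the test with cytokines (26.4% of all genes did, 13.6% as higher), and all 3 rose. The groups did not overlap for 3 of the 10 genes, Atf3 and Eif2ak3 among them, and for 26.2% of all genes. The median log2 fold change was 0.08, compared with −0.007 over all genes. Of the β cell markers 3 rose and 4 fell, and none of the other cell types' markers passed. Atf3 went from 4.32, 5.14, 5.55 and 4.07 CPM in ZIP to 10.5, 11.4, 14.6 and 17.5 CPM in ZIP+Cy, a log2 fold change of 1.501 ± 0.177 (adjusted p = 4.78e-07). Eif2ak3 rose by 0.29 ± 0.0761 (adjusted p = 0.00579), from 114 to 140.2 CPM in ZIP to 143 to 159 in ZIP+Cy.

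Ppp1r15a, the eIF2α phosphatase subunit, was at 31.5, 29.8, 33.6 and 31.8 CPM in ZIP and at 39.3, 36.5, 37.6 and 43.3 CPM in ZIP+Cy. It rose by 0.31 ± 0.0975 on the log2 scale (1.24-fold, adjusted p = 0.0215). The call was lost without ZIP replicate 2 (adjusted p = 0.0674) or ZIP+Cy replicate 4 (0.0819). CHOP (Ddit3) had a log2 fold change of 0.45 ± 0.246 (adjusted p = 0.195) and passed the test only with the replicate block (0.45, adjusted p = 0.0138). Trib3 (0.05), Sesn2 (−0.01), Asns (−0.08), Atf4 (0.11), Chac1 (−0.22) and Ddit4 (−0.48) did not pass.

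In OE cells, 8 of the 10 genes rose with cytokines and none fell, against 44.6% of all genes past the test in either direction and 23% higher. Groups did not overlap for 6 of the 10 genes and for 40.2% of all genes. Of the 8, 6 rose by at least 1.5-fold, which 11.8% of all genes did. Median log2 fold change over the 10 genes was 0.72, and 0.024 over all genes. Beside these, 9 of the 12 β cell markers fell in OE+Cy and 1 rose, and their summed level went from 49210 to 52830 CPM in OE to 30830 to 40260 CPM in OE+Cy. Of the 6 markers of other islet, acinar and duct cells 3 fell, and no fibroblast or leukocyte marker passed. The part of these shifts in the values below was not tested.

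Among the transcription factors, Atf3 was at 4.23, 6.31, 3.50 and 4.32 CPM in OE and at 49.8, 51.8, 59.1 and 52.3 CPM in OE+Cy. It rose by 3.53 ± 0.176 on the log2 scale (11.6-fold, adjusted p = 4.82e-14). Ddit3, which encodes the proapoptotic factor CHOP, was at 14.1, 38.8, 21.4 and 23.0 CPM in OE and at 44.0, 75.9, 83.9 and 63.9 CPM in OE+Cy. All treated libraries lay above the untreated ones, and the log2 fold change was 1.46 ± 0.244 (2.74-fold, adjusted p = 2.85e-05). Atf4 was at 320, 539, 392 and 407 CPM in OE and at 408, 554, 504 and 476 CPM in OE+Cy. The groups overlapped through OE replicate 2, and its log2 fold change of 0.23 ± 0.147 did not pass (adjusted p = 0.223). It did pass with the replicate block (0.24, adjusted p = 0.00948) and without OE replicate 2 (0.39, adjusted p = 0.0347).

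Of the genes that restrain the pathway, Trib3 was at 11.8, 38.5, 18.2 and 15.5 CPM in OE and at 50.9, 74.6, 87.5 and 64.6 CPM in OE+Cy. It rose 3.30-fold (log2 fold change 1.72 ± 0.265, adjusted p = 9.17e-06). Ppp1r15a was at 27.5 to 37.6 CPM in OE and at 46.1 to 64.0 CPM in OE+Cy, and rose by 0.85 ± 0.0967 (adjusted p = 1.29e-07). For both genes every OE+Cy library was higher than every OE library.

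Among genes of metabolism and growth, Sesn2, which restrains mTORC1 when leucine is short, rose by 0.89 ± 0.132 (adjusted p = 5.78e-06), from 38.1 to 66.5 CPM to 76.8 to 101 CPM. Asns rose by 0.36 ± 0.101 (adjusted p = 0.00551), but OE replicate 2 at 325 CPM lay within the OE+Cy range of 281 to 368. Chac1 was at 27.4, 58.8, 28.8 and 26.7 CPM in OE and at 47.1, 60.6, 56.5 and 50.3 CPM in OE+Cy. Its log2 fold change was 0.60 ± 0.195 (adjusted p = 0.0155), with overlap through the same OE library. The call on Chac1 was lost without OE replicate 1 (adjusted p = 0.0608), replicate 3 (0.0589) or replicate 4 (0.0648) or OE+Cy replicate 2 (0.0535), and without OE replicate 2 the change was 0.96 (adjusted p = 1.37e-05).

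At the top of the pathway, Eif2ak3 rose by 0.38 ± 0.0759 (adjusted p = 0.000209), from 124 to 149 CPM to 158 to 197 CPM. Ddit4 stood apart, with a log2 fold change of −0.60 ± 0.309 (adjusted p = 0.122) and OE libraries at 20.04, 69.9, 48.7 and 48.3 CPM. Without OE replicate 1, the lowest of these, Ddit4 passed the test as lower (−0.85, adjusted p = 0.0166).

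**Figure D2:**
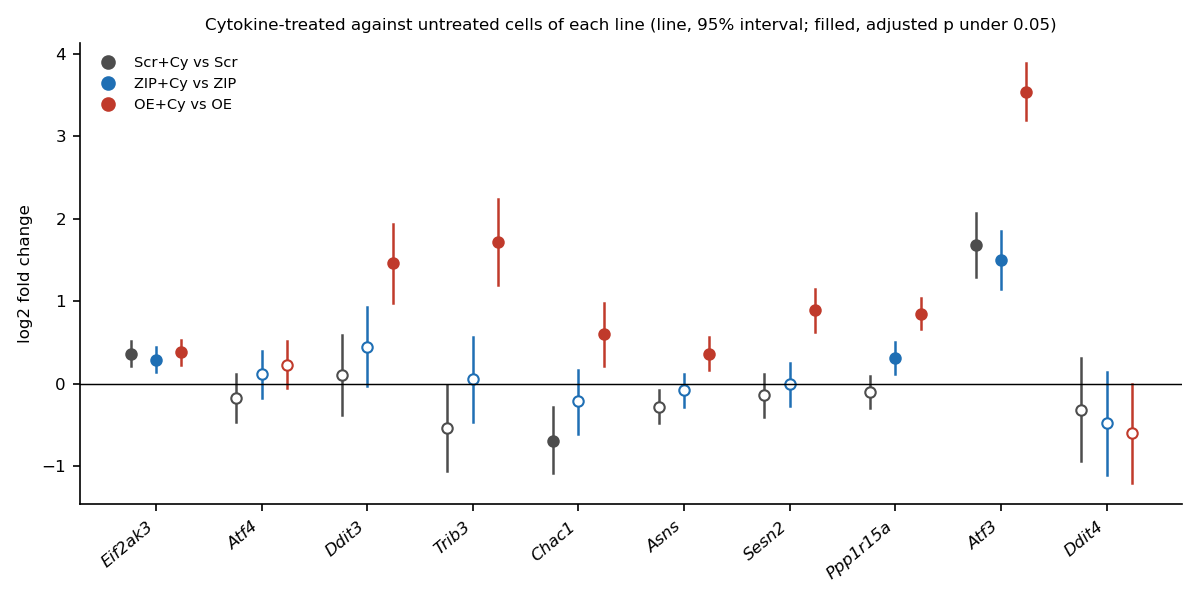
Log2 fold change of each of the 10 genes (y axis) between cytokine-treated and untreated cells of Scr, ZIP and OE lines, with 95% intervals, and filled points where the adjusted p was under 0.05. In OE cells 8 points are filled, compared with 3 in each of the other lines. Atf3 reaches 3.53 in OE cells, 1.68 in Scr and 1.501 in ZIP.

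Whether OE cells answered the cytokines differently from Scr cells was tested with an interaction term of that fit. The response was larger in OE cells for 7 of the 10 genes and smaller for none, against 20% of all genes past this test and 9.64% with a larger value in OE cells. The difference in log2 fold change was 2.26 ± 0.374 for Trib3 (adjusted p = 0.000162), 1.85 ± 0.266 for Atf3 (4.09e-05), 1.35 ± 0.347 for Ddit3 (0.00722) and 1.29 ± 0.283 for Chac1 (0.00217). It was 1.03 ± 0.187 for Sesn2 (0.000394), 0.95 ± 0.138 for Ppp1r15a (4.33e-05) and 0.64 ± 0.143 for Asns (0.00257). For 5 of the 7 (Trib3, Chac1, Sesn2, Ppp1r15a and Asns) the fitted change was below 0 in Scr and above 0 in OE cells. Of these Scr values, only that of Chac1 passed the test in the fit of all 6 groups without a replicate block. The difference was 0.03 (95% interval −0.19 to 0.24, adjusted p = 0.925) for Eif2ak3. For Ddit4 it was −0.28 (−1.15 to 0.58, adjusted p = 0.724). For Atf4 it was 0.41 (0 to 0.82, adjusted p = 0.188), and it passed the test with the replicate block (0.41, adjusted p = 0.0055) and without OE replicate 2 (0.58, adjusted p = 0.0419). That block assumes the same shift by replicate number in both lines, and same-numbered OE and Scr libraries did not all deviate together. Beside these, 8 of the 12 β cell markers had a lower response in OE than in Scr cells and none a higher one, and the part of that in the values above was not tested.

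The same test for ZIP cells found none of the 10 genes with a response different from that of Scr cells by edgeR, and 0.0565% of all genes. DESeq2 also called 0 of the 10, and 0.232% of all genes. Of the intervals, that of Ppp1r15a was 0.14 to 0.68 on the log2 scale (unadjusted p = 0.00662, adjusted p = 0.563). That of Atf3 was −0.70 to 0.35 and that of Trib3 was −0.14 to 1.32.

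The lines were next compared with Scr in the absence of cytokines. In ZIP cells, 2 of the 10 genes were higher and none lower (28.3% of all genes passed, 13.5% as higher). Atf3 was at 4.07 to 5.55 CPM in ZIP and 1.61 to 2.54 in Scr, a log2 fold change of 1.22 ± 0.206 (2.32-fold, adjusted p = 6.11e-05). Eif2ak3 was higher by 0.46 ± 0.0765 (adjusted p = 5.4e-05), at 114 to 140.2 CPM compared with 84.7 to 98.9. Both were among the 3 of the 10 genes whose groups did not overlap, as held for 27.2% of all genes. The other 8 had log2 fold changes from −0.03 (Atf4) to 0.28 (Chac1). Of the β cell markers, 9 of 12 were higher and 1 lower in ZIP, and 1 fibroblast and 1 leukocyte marker were higher. Their part in these values was not tested.

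In OE cells without cytokines, 4 of the 10 genes were higher than in Scr (50.1% of all genes passed, 24.5% as higher). Groups did not overlap for 3 of the 10 and for 46.5% of all genes. Atf3 was higher by 1.16 ± 0.204 (2.24-fold, adjusted p = 3.8e-05) and Eif2ak3 by 0.58 ± 0.0764 (adjusted p = 7.44e-07). Atf4 was at 320 to 539 CPM in OE and at 210 to 315 CPM in Scr, with no overlap, and was higher by 0.58 ± 0.148 (adjusted p = 0.00201). Ddit4 was higher by 0.90 ± 0.311 (adjusted p = 0.0189), but its groups overlapped, and the call was lost without OE replicate 2 (0.64, adjusted p = 0.103) or Scr replicate 1 (0.72, adjusted p = 0.0742).

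The other 6 of the 10 genes did not pass the test in untreated OE cells. Log2 fold changes were −0.53 ± 0.264 for Trib3 (adjusted p = 0.102), −0.13 ± 0.133 for Sesn2 (0.461), 0.16 ± 0.101 for Asns (0.216), 0.33 ± 0.198 for Chac1 (0.174), 0.14 ± 0.0976 for Ppp1r15a (0.263) and 0.11 ± 0.247 for Ddit3 (0.753). These values leaned on OE replicate 2, in which all of these genes were high. Without that library Trib3 passed the test as lower in OE (−0.995, adjusted p = 0.000658), as did Sesn2 (−0.32, adjusted p = 0.023), while Ddit3 (−0.21) and Chac1 (−0.02) changed sign without passing. Counts of genes past the test were then 3 higher and 2 lower. Of the 12 β cell markers, 6 were higher and 4 lower in OE than in Scr. Of the 6 other islet, acinar and duct markers 3 were higher and 2 lower, 1 fibroblast marker was lower and 1 leukocyte marker higher, and the part of these in the values was not tested.

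The lines were also compared with Scr+Cy after treatment. In ZIP+Cy, 5 of the 10 genes were higher than in Scr+Cy and none lower (28.1% of all genes passed, 12.9% as higher). Atf3 was higher by 1.04 ± 0.171 (adjusted p = 4.46e-05), Chac1 by 0.75 ± 0.205 (0.00746), Ppp1r15a by 0.59 ± 0.0982 (4.67e-05), Eif2ak3 by 0.39 ± 0.0762 (0.00033) and Asns by 0.29 ± 0.102 (0.0365). None of the 5 overlapped between the groups (27.6% of all genes did not). The call on Asns was lost on leaving out any of 6 of the 8 libraries, with adjusted p values from 0.0532 to 0.108. These were Scr+Cy replicates 2 to 4 and ZIP+Cy replicates 2 to 4. With the replicate block, 8 of the 10 genes were higher, where 32.9% of all genes passed (2680 of 17696 genes as higher). The additional ones were Atf4 (0.26, adjusted p = 0.00805), Ddit3 (0.51, 0.00552) and Trib3 (0.55, 0.0403). Of the β cell markers 8 of 12 were higher and none lower in ZIP+Cy, and of 6 fibroblast markers 1 was higher and 1 lower.

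In OE+Cy, 9 of the 10 genes were higher than in Scr+Cy, each by at least 1.5-fold. Of all genes, 53.4% passed the test and 26% were higher, and 12.7% were higher by at least 1.5-fold. None of the 9 overlapped between the groups, as held for 46.2% of all genes. The median log2 fold change was 1.04, compared with 0.008 over all genes. Atf3 was higher by 3.02 ± 0.171 (8.09-fold, adjusted p = 3.6e-13) and Trib3 by 1.73 ± 0.266 (3.33-fold, 6.42e-06). Chac1 was at 47.1 to 60.6 CPM in OE+Cy and at 15.6 to 20.9 in Scr+Cy, higher by 1.62 ± 0.204 (3.07-fold, 3.78e-07). Ddit3 was higher by 1.46 ± 0.245, Ppp1r15a by 1.09 ± 0.0978, Atf4 by 0.99 ± 0.149, Sesn2 by 0.91 ± 0.133, Asns by 0.79 ± 0.102 and Eif2ak3 by 0.61 ± 0.0762, with adjusted p values from 1.44e-09 to 2.19e-05. Ddit4 had a log2 fold change of 0.62 ± 0.317 (adjusted p = 0.107) and passed without Scr+Cy replicate 4 (0.83, adjusted p = 0.0493). Among the β cell markers, 5 of 12 were higher and 5 lower in OE+Cy than in Scr+Cy. Of the 6 fibroblast markers 4 were lower (median log2 fold change −4.41 over the 6), and of the 6 other islet, acinar and duct markers 3 were higher and 1 lower (median 2.55). Their part in these values was not tested. The 4 comparisons with Scr and Scr+Cy share control libraries, and so do the line and cytokine comparisons.

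**Figure D3:**
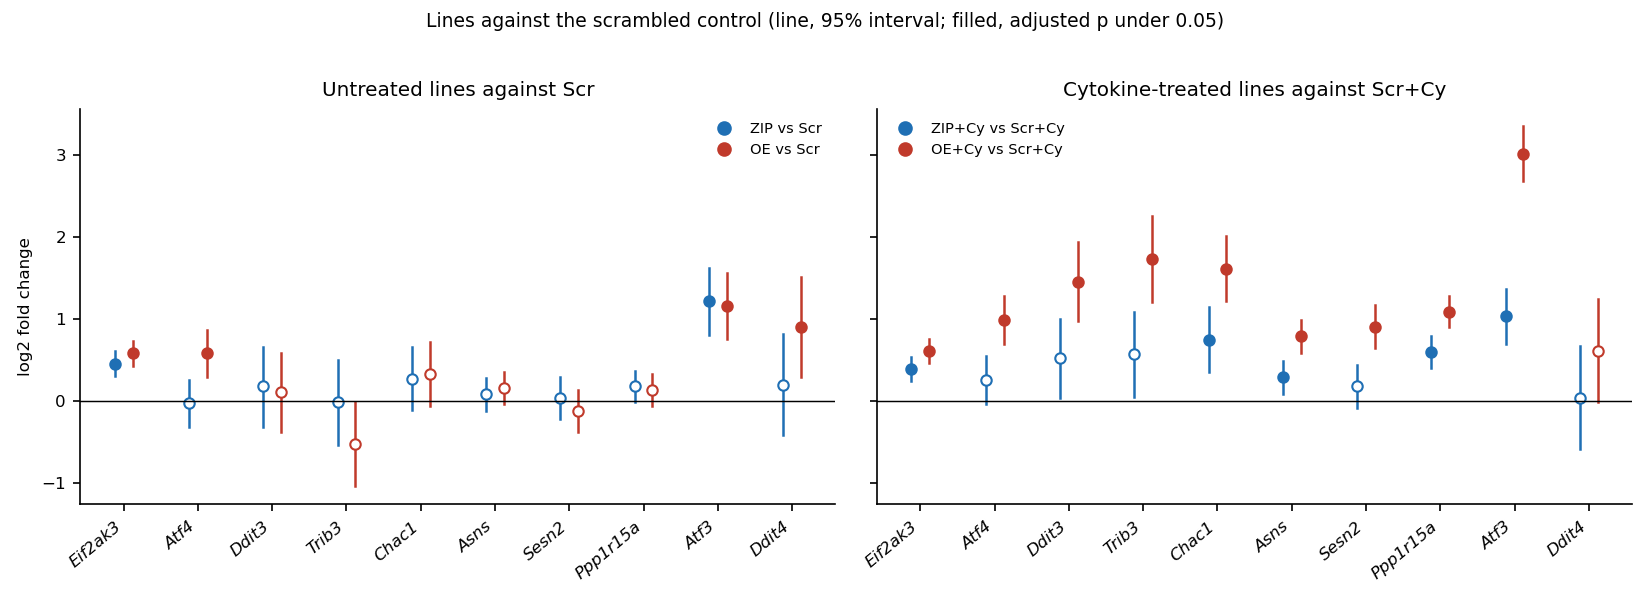
Log2 fold change of each of the 10 genes (y axis) in ZIP and OE lines against Scr, untreated at the left and with cytokines at the right, with 95% intervals, and filled points where the adjusted p was under 0.05. In the treated panel 9 OE points are filled, from 0.61 (Eif2ak3) to 3.02 (Atf3), and Ddit4 is open.

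Of the 10 genes, 9 varied more between replicates than the median gene. The SD of log2 CPM around the group means was 0.520 for Ddit4, 0.412 for Trib3, 0.392 for Ddit3, 0.302 for Chac1 and 0.276 for Atf3, compared with a median of 0.121 over genes at 1 CPM or more. Eif2ak3, at 0.112, was the only one of the 10 below that median. The spread was shared among genes. In replicate 2 of OE all 10 genes were above their group mean, by 0.552 on the log2 scale on average, and in replicate 1 of OE and of ZIP all 10 were below it, by 0.372 and 0.285.

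Replicate 1 was also below its group mean in all 6 groups for Atf4, Ddit3, Trib3, Chac1 and Ddit4. Its mean deviation was −0.61 for Ddit4, −0.48 for Ddit3, −0.38 for Trib3, −0.31 for Atf4 and −0.24 for Chac1. Ppp1r15a did not share this pattern (−0.001). Without the libraries numbered 1 in every group, Ddit4 passed as lower in OE+Cy than in OE (−0.80, adjusted p = 0.00284) and in ZIP+Cy than in ZIP (−0.59, adjusted p = 0.0437), and Ppp1r15a no longer passed in ZIP+Cy (0.30, adjusted p = 0.0801). Without OE replicate 2, the response of OE cells was larger than in the full data for 9 of the 10 genes, for example 2.20 for Trib3 and 1.79 for Ddit3, and 9 genes passed the test. What the replicate numbers stand for is not given in the sources used here.

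**Figure D4:**
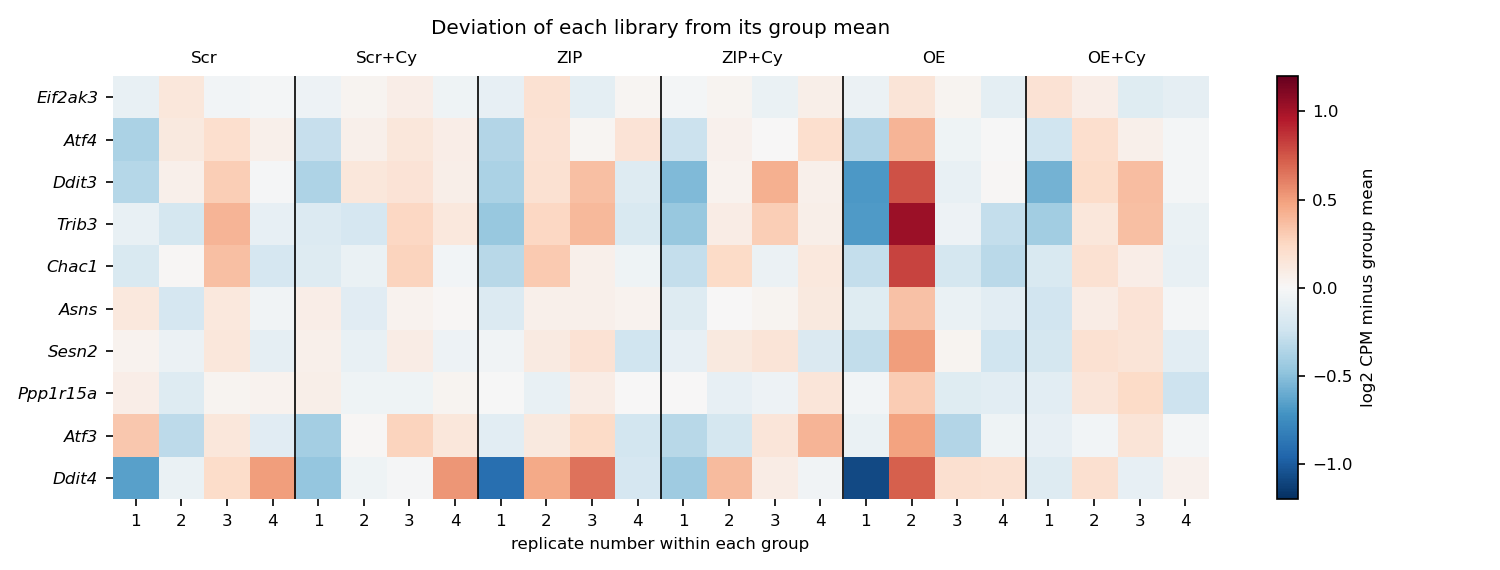
Deviation of log2 CPM from the group mean (color; red above, blue below) for each of the 10 genes (rows) in each library (columns, by group and replicate number). Replicate 2 of OE is red in all 10 rows and replicate 1 is blue for Atf4, Ddit3, Trib3, Chac1 and Ddit4 in all 6 groups.

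Over the 24 libraries, the log2 levels of the 10 genes went together for most of their 45 pairs, with a median r of 0.719 (range 0.061 to 0.946). Highest were Trib3 with Sesn2 (0.946), Chac1 with Asns (0.929) and Ddit3 with Trib3 (0.907). The 9 pairs with Ddit4 had a median r of 0.293, and the other 36 pairs 0.761. Around the group means the median was 0.537, and the highest value was again between Ddit3 and Trib3 (0.906). The libraries within a group share a line and treatment, and the values are descriptions of these 24 libraries.

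The gene outside the 10 with the most similar levels, among 12660 at 1 CPM or more, was Aars, the alanyl-tRNA synthetase, for Ddit3 (r = 0.929), the amino acid transporter gene Slc1a4 for Chac1 (0.926) and the arginine transporter gene Slc7a3 for Asns (0.961). For Atf3 it was Gadd45b (0.96), a stress- and NF-κB-responsive gene, and for Ddit4 it was Adm, encoding the vasodilator peptide adrenomedullin (0.851). For the other genes it was Stbd1 for Trib3 (0.948), Uhrf1bp1 for Sesn2 (0.953), Zbtb21 for Ppp1r15a (0.926), Rspo4 for Eif2ak3 (0.939) and Taf15 for Atf4 (0.913). Each r is over the 24 libraries.

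The wider pathway was followed in 60 further genes in 6 lists, all of them measured and also chosen with earlier results of these data known. In OE+Cy against OE, 41 of the 60 passed the test, 31 as higher and 10 as lower, against 44.6% of all genes. In Scr+Cy against Scr 17 passed (28.3%; 5 higher, 12 lower), compared with 17.8% of all genes. In ZIP+Cy against ZIP 16 passed (26.7%; 12 higher, 4 lower), close to the 26.4% of all genes. The response of OE cells differed from that of Scr cells for 32 of the 60, as a larger value for 30 (20% of all genes passed). For ZIP cells none of the 60 passed that test by edgeR or DESeq2. Of the 60, 7 had an unadjusted p under 0.05, a threshold at which the share of all genes was not counted.

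Among 7 transcription factors that act with ATF4 or CHOP, all passed the test in OE+Cy against OE (44.6% of all genes did), 6 as higher and 1, Atf6b, as lower (named here after its value was seen). Jdp2 rose by 2.05 ± 0.237 on the log2 scale (from 1.05 to 4.32 CPM, adjusted p = 1.58e-07), the stress-induced Nupr1 from 10.2 to 34.9 CPM (1.76 ± 0.213, 2.86e-07) and Cebpb from 7.13 to 20.5 CPM (1.52 ± 0.204, 1.43e-06). Without cytokines most of the list was lower in OE than in Scr. Of the 7, 5 were lower and 1 higher there (50.1% of all genes passed), with log2 fold changes of −2.45 for Jdp2 (5.72 CPM in Scr and 1.05 in OE), −1.02 for Atf5 and −0.90 for Cebpb. In Scr+Cy against Scr only Nfe2l2, encoding the antioxidant factor NRF2, passed (0.33 ± 0.0716, adjusted p = 0.00192). In OE+Cy against Scr+Cy 3 of the 7 passed, beside 53.4% of all genes. Nupr1 (1.26 ± 0.208) and Cebpg (0.39 ± 0.107) were higher there and Atf6b (−0.19 ± 0.0596) was lower. Jdp2 (4.32 CPM in OE+Cy and 4.29 in Scr+Cy) and Cebpb (20.5 and 15.3 CPM) did not pass there.

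Genes of amino acid synthesis fell with cytokines in control cells, whereas in OE cells more of them rose than fell. In Scr+Cy, 6 of 10 fell (7.33% of all genes did) and none rose, with a median log2 fold change of −0.47, led by the mitochondrial folate enzyme Aldh1l2 (−0.88 ± 0.129), the proline enzyme Pycr1 (−0.73 ± 0.139) and the serine enzyme Phgdh (−0.69 ± 0.175). In ZIP+Cy, Pycr1 (−0.73) and Aldh1l2 (−0.64) fell. In OE+Cy against OE, 4 rose and 2 fell, where 44.6% of all genes passed and 23% rose. Pycr1 fell again (−0.93 ± 0.137), whereas Gpt2 (0.59 ± 0.141) and Shmt2 (0.57 ± 0.113), which transfer amino and one-carbon groups, rose. All 10 were higher in OE+Cy than in Scr+Cy (26% of all genes were), 7 of them by at least 1.5-fold, with Phgdh at 53.5 and 20.4 CPM (1.39 ± 0.175, adjusted p = 3.73e-07). The test of the difference between the responses passed for 6 of the 10, all larger in OE cells, and for 20% of all genes.

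Of 9 amino acid transporter genes, 3 fell in Scr+Cy against Scr (7.33% of all genes did) and none rose, with log2 fold changes of −0.70 for Slc1a4, −0.38 for Slc3a2 and −0.36 for Slc7a5. In OE+Cy against OE 5 rose (23% of all genes did) and none fell. The glycine transporter gene Slc6a9 rose from 6.46 to 21.5 CPM (1.73 ± 0.202, adjusted p = 1.85e-07), the cystine transporter gene Slc7a11 from 9.99 to 25.7 CPM (1.36 ± 0.220) and Slc7a3 from 20.8 to 38.2 CPM (0.88 ± 0.224). All 9 were higher in OE+Cy than in Scr+Cy (26% of all genes were). The responses differed for 6 of the 9, all larger in OE cells (20% and 9.64% of all genes). Without cytokines 3 of the 9 differed between OE and Scr, 2 as higher in OE and 1 as lower (50.1% of all genes passed). The lower one was Slc6a9, at 6.46 CPM in OE and 15.3 in Scr (−1.24 ± 0.203, adjusted p = 1.65e-05).

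Cytosolic aminoacyl-tRNA synthetases, which load tRNAs and include many ATF4 targets, rose in OE+Cy for 11 of 12 genes (23% of all genes rose) and fell for none, mostly by less than 1.5-fold. The exceptions were Wars, which is also an interferon-γ target, from 198 to 752 CPM (1.93 ± 0.125, adjusted p = 7.55e-12), and Aars (0.74 ± 0.0876). Wars also rose in Scr+Cy (1.13 ± 0.123) and ZIP+Cy (1.17 ± 0.123). In Scr+Cy 2 of the 12 rose and 2 fell (17.8% of all genes passed). That count of 4 dropped to 1 without Scr replicate 1 and to 2 without Scr replicate 3, Scr+Cy replicate 2 or Scr+Cy replicate 3. With cytokines, 9 of the 12 were higher in ZIP than in Scr (12.9% of all genes were) and none lower, led by Cars (0.43 ± 0.0742), Iars (0.41 ± 0.0707) and Gars (0.40 ± 0.0549).

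Of 12 kinases and translation factors, 7 passed in OE+Cy against OE (3 higher, 4 lower; 44.6% of all genes passed). The interferon-induced kinase gene Eif2ak2, encoding PKR, rose in all lines, by 1.93 ± 0.0875 in Scr, 2.07 ± 0.0884 in ZIP and 2.11 ± 0.0878 in OE. Of genes for eIF2α and its exchange factor, Eif2s1 (0.24 ± 0.0639) and Eif2b1 (0.21 ± 0.066) rose in ZIP+Cy. The translational repressor gene Eif4ebp1 fell in Scr+Cy (−0.55 ± 0.187, adjusted p = 0.0442) and rose in OE+Cy (0.93 ± 0.182, adjusted p = 0.000171), and the difference of 1.48 ± 0.261 passed (adjusted p = 0.000304). Dnajc3, whose product inhibits PERK in the endoplasmic reticulum, fell in OE+Cy from 464 to 225 CPM (−1.05 ± 0.113, adjusted p = 5.34e-08).

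**Figure D5:**
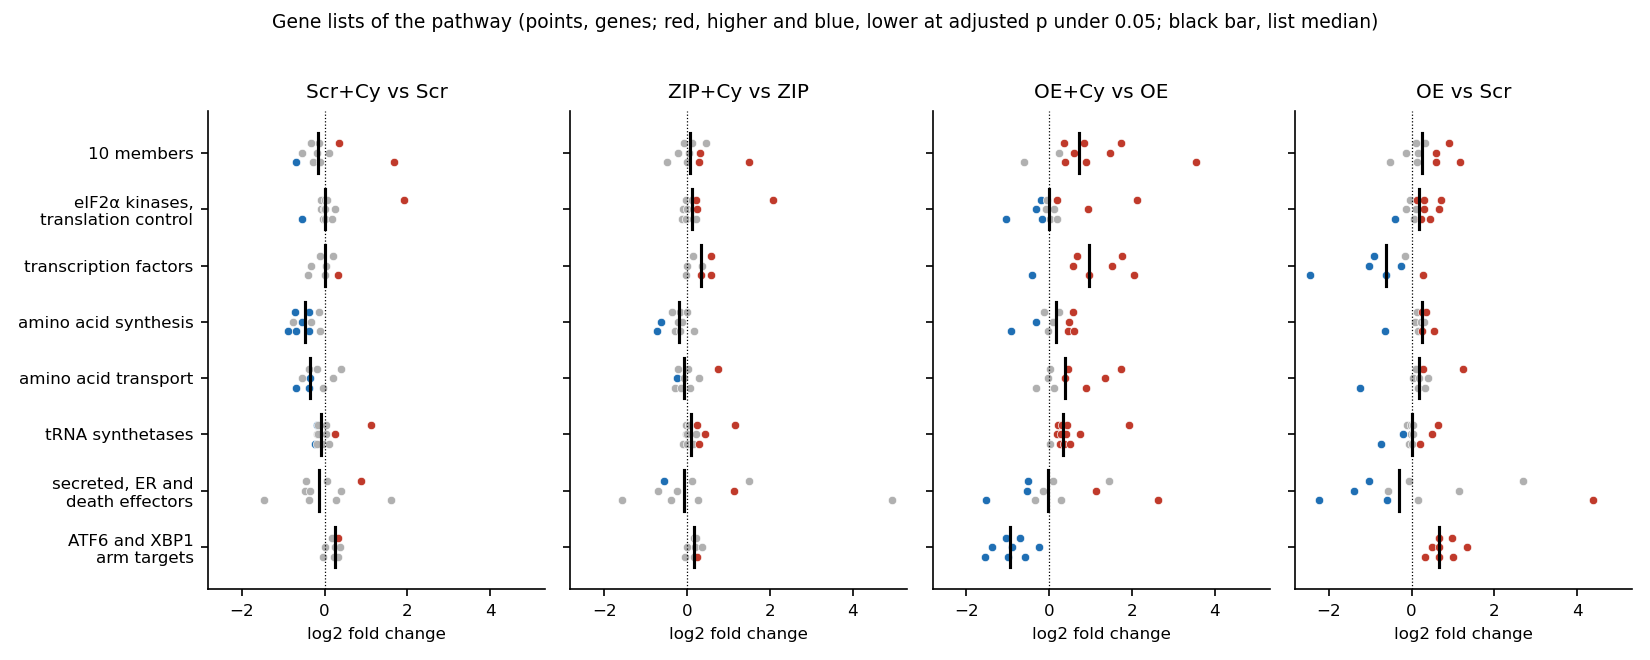
Log2 fold change (x axis) of the 10 genes, the 6 further lists and the ATF6 and XBP1 targets (rows) in 4 comparisons (panels), 1 point per gene, red where higher and blue where lower at an adjusted p under 0.05, black bar at the list median. In OE+Cy against OE the median is 0.72 for the 10 genes and −0.94 for the ATF6 and XBP1 targets, and in OE against Scr these are 0.24 and 0.67.

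The other arms of the unfolded protein response were read for comparison through 8 targets of ATF6 and XBP1, mostly chaperones of the endoplasmic reticulum. In OE+Cy against OE all 8 fell (44.6% of all genes passed), 7 of them by at least 1.5-fold, with a median log2 fold change of −0.94. The cochaperone gene Sdf2l1 fell from 221 to 75.0 CPM (−1.56 ± 0.169, adjusted p = 5.69e-08), Creld2 from 220 to 83.5 CPM (−1.39 ± 0.174, 4.8e-07) and Hsp90b1, encoding GRP94, from 2899 to 1404 CPM (−1.05 ± 0.141, 1.52e-06). The same 8 had all been higher in OE than in Scr without cytokines (24.5% of all genes were), with a median of 0.67 and Creld2 at 220 and 87.2 CPM (1.33 ± 0.173). In Scr+Cy and in ZIP+Cy 1 of the 8, Edem1, passed as higher (0.31 and 0.24). On leaving out 1 library, 0 to 2 of the 8 passed in Scr+Cy (0 without Scr replicate 4 or Scr+Cy replicate 2, 2 without Scr+Cy replicate 1). In ZIP+Cy 0 to 3 passed, with 0 without ZIP replicate 1 or 3 or ZIP+Cy replicate 2 or 4, 2 without ZIP+Cy replicate 3 and 3 without ZIP replicate 4. The signed response was lower in OE than in Scr cells for all 8 genes (20% of all genes differed), with a fall in OE and a median of 0.245 in Scr. The differences were led by −1.88 ± 0.235 for Sdf2l1, −1.65 ± 0.244 for Creld2 and −1.35 ± 0.200 for Pdia4. For 7 of the 10 integrated stress response genes the signed response was higher in OE cells. Of the 8, 5 were lower in OE+Cy than in Scr+Cy and none higher (53.4% of all genes passed). That count was 2 without Scr+Cy replicate 2 or OE+Cy replicate 3 or 4, and 3 without Scr+Cy replicate 3 or 4.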

How the data were processed

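Messenger RNA from 24 libraries of MIN6 stable lines (6 groups of 4) had been sequenced as paired-end reads. According to the study's methods, reads were aligned to mm10 with STAR, assigned to RefSeq transcripts in Partek Flow, and genes with fewer than 10 reads in total were removed. The submitters' processing notes name STAR 2.7.8a and Partek 11.0.24.0204, and the study's methods give other versions. The table deposited by the authors holds estimated counts of each gene, not normalized, and 30.3% of its values were fractional. A table of normalized values was not used here, and neither source gives the use of strand in counting.

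These were rounded to integers, and all 17696 genes entered 1 model of 6 group means in edgeR 4.0.16 (R 4.3.3, TMM scaling), with glmQLFit for the fit and glmQLFTest for each comparison. A gene passed the test at a Benjamini-Hochberg adjusted p under 0.05 over all genes, with no fold change limit, and is described as rising or falling only then. SEs of log2 fold changes were obtained from the F statistics (size over root of F). The 95% intervals, in text and figures, use these SEs and a normal quantile. They are narrower than the test implies, so an interval can exclude 0 at an unadjusted p over 0.05. The procedure was tested on simulated data. CPM values use TMM-scaled library sizes, and levels of groups are mean ± SD. The deviations and correlations are from log2 CPM with a prior count of 2.

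The 10 genes and the further lists were chosen with earlier results of these data known. Of each list, up to 3 genes with the largest change among those past the test and at 1 CPM or more in either group are named in a comparison. Promoters and the mature microRNA are RefSeq sequences (GRCm38.p6), and exon lengths and UTRs are from GENCODE release M21 on the same build.

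Groups and replicate numbers are from the labels, which do not say that the libraries of a group came from separate cultures, so p values measure only the spread between these libraries. No libraries were duplicates (chi-square per degree of freedom 7.37 to 56.9 between libraries of a group). Same-numbered libraries deviated together (every correlation over 0.1, over 12670 genes) in 5 of 7 comparisons: Scr+Cy and Scr (0.413 to 0.626), ZIP+Cy and ZIP (0.261 to 0.397), OE+Cy and OE (0.162 to 0.455), ZIP and Scr (0.141 to 0.634), and ZIP+Cy and Scr+Cy (0.191 to 0.370). Their labels also share a code for each number. Values with the replicate number as a block are given where they change a call.

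Alternatives were DESeq2 1.42.0, DESeq2 size factors in edgeR, the filterByExpr filter (14535 genes), the replicate block, a fit restricted to the groups of a comparison, other call rules, a prior count of 0.5, a stricter promoter element, and leaving out each library in turn. Fits without the libraries numbered 1, and of the block in only the groups compared, were added after the data were seen. Depth was 26657792 to 37168232 assigned reads per library.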

Additional observations from a re-analysis of the deposited data

Results flagged for a closer look

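The cytokine response of 7 genes differed between OE and Scr cells by the interaction test of the fit across all genes (adjusted p under 0.05). The differences in log2 fold change were 2.26 for Trib3, 1.85 for Atf3, 1.35 for Ddit3, 1.29 for Chac1, 1.03 for Sesn2, 0.95 for Ppp1r15a and 0.64 for Asns, all larger in OE cells. Leaving out any of the 16 libraries of these groups left all 7 past the test.

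In 60 groups of 4 libraries (10 genes in 6 groups), 4 held a library that stood far from the others by Dixon's test on log2 CPM, and chance gives about 3. Replicate 2 of OE was the highest for Chac1 (58.8 CPM, others 26.7 to 28.8; gap over range 0.905) and for Asns (325 CPM, others 232 to 241; 0.879). Replicate 1 of ZIP was the lowest for Asns (219 CPM, others 252 to 256; 0.893), and replicate 1 of Scr+Cy was the lowest for Ddit3 (18.6 CPM, others 25.35 to 26.97; 0.833).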

How the results depend on the processing

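The counts past the test among the 10 genes and the 60 further genes stayed within 1.5 times the reported one with DESeq2, with DESeq2 size factors, with the filterByExpr filter, and on leaving out any library. Counts of the single lists of 7 to 12 genes moved more, as given with them. The cause of each change given here was not tested.

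For the 10 genes, the fit of only the groups compared gave 5 in Scr+Cy against Scr (3 reported). With the replicate block and only the groups compared, which was chosen after seeing the data, 8 passed in Scr+Cy against Scr (2 higher, 6 lower, beside 31.1% of all genes). The counts were then 7 in ZIP+Cy against ZIP (3 reported, 36.7% of all genes) and 4 in ZIP against Scr (2 reported, near the 30.5% of all genes). They were 9 in ZIP+Cy against Scr+Cy (5 reported, 8 with the block alone) and 1 for the difference in response of ZIP cells (0 reported). Of all genes, 32.2% passed in the former and 0.475% in the latter. A further requirement of a 1.5-fold change, with an adjusted or an unadjusted p, left 1 in ZIP+Cy against ZIP, 1 in ZIP against Scr, 2 in OE against Scr (4 reported) and 3 in ZIP+Cy against Scr+Cy.

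For the 60 further genes, the block with only the groups compared gave 38 in Scr+Cy against Scr (17 reported), 35 in ZIP+Cy against ZIP (16 reported) and 23 in ZIP against Scr (14 reported). In that fit 31.1%, 36.7% and 30.5% of all genes passed. With the 1.5-fold requirement and an adjusted p, the counts were 7, 6 and 5, and with an unadjusted p 8, 8 and 5. Either gave 18 in OE+Cy against OE (41 reported), 16 in OE against Scr (32), 6 in ZIP+Cy against Scr+Cy (25), 28 in OE+Cy against Scr+Cy (47) and 21 for the difference in response of OE cells (32). By unadjusted p and fold, 2 differed in response in ZIP cells (0 reported). Over all genes, 5503 passed in Scr+Cy against Scr with the block and only the groups compared (3151 reported). For the difference in response of ZIP cells 10 were reported, with 45 by the block, 84 by the block with only the groups compared and 41 by DESeq2. The stricter promoter element was found in 2 of the 10 genes rather than 4.

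Asns in Scr+Cy against Scr also passed by DESeq2 (adjusted p = 0.0271) and with DESeq2 size factors in edgeR (0.0485). Same-numbered libraries were not paired in OE against Scr (correlations −0.13 to 0.295) or in OE+Cy against Scr+Cy (0.000631 to 0.165). With the replicate block, Trib3 passed there as lower in OE (−0.58, adjusted p = 0.018) and Ddit4 as higher in OE+Cy (0.64, adjusted p = 0.015). Beside these and the changes given above with the comparisons, the block changed no call on the 10 genes.

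Under the settings tried, signs among the 10 genes changed only for values that had not passed the test. Sesn2 in ZIP+Cy against ZIP was 0.001 with only the groups compared, 0.004 with the block as well and 0.006 without the libraries numbered 1 (chosen after seeing the data), which also gave 0.083 for Trib3 in ZIP against Scr and −0.029 for the difference in response of Eif2ak3 in OE cells. On leaving out 1 library, ranges were −0.087 to 0.183 for Trib3 and −0.082 to 0.048 for Sesn2 in ZIP+Cy against ZIP. In ZIP against Scr they were −0.14 to 0.078 for Atf4, −0.152 to 0.159 for Trib3, −0.014 to 0.118 for Sesn2 and −0.03 to 0.43 for Ddit4. They were −0.21 to 0.30 for Ddit3 and −0.024 to 0.495 for Chac1 in OE against Scr, and −0.10 to 0.25 for Ddit4 in ZIP+Cy against Scr+Cy. For the difference in response they were −0.035 to 0.102 for Eif2ak3 and −0.53 to 0.001 for Ddit4 in OE cells, and −0.114 to 0.015 for Eif2ak3 and −0.379 to 0.079 for Ddit4 in ZIP cells.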

Other observations

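Of 10 secreted, endoplasmic reticulum and death effectors of the pathway, 5 passed the test in OE+Cy against OE, 2 as higher and 3 as lower, near the 44.6% of all genes that passed. Without OE replicate 2 the count was 3. The death receptor gene Tnfrsf10b rose by 2.62 ± 0.245 on the log2 scale (from 0.452 to 2.83 CPM, adjusted p = 4.82e-09) and Bbc3, encoding the proapoptotic protein PUMA, from 6.50 to 14.2 CPM (1.12 ± 0.164, adjusted p = 4.65e-06). Stc2 fell from 1.14 to 0.391 CPM (−1.54 ± 0.541, adjusted p = 0.0234). Tnfrsf10b also rose in Scr+Cy (0.89 ± 0.211, from 2.17 to 4.01 CPM) and in ZIP+Cy (1.15 ± 0.258, from 0.514 to 1.15 CPM), and without cytokines it was lower than in Scr in both ZIP (−2.07 ± 0.247) and OE (−2.24 ± 0.245).

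Gdf15 and Fgf21, which encode hormones induced by the pathway, were at very low levels in all groups. Group means of Gdf15 were 0.0344 to 0.108 CPM and those of Fgf21 were 0.0740 to 0.203 CPM, and neither gene passed the test in any of the 9 comparisons.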
